A study of Mus musculus with 6 samples.

Results

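The genes described are 8 transcription factors of the paraxial mesoderm, namely Foxc1, Foxc2, Tbx6, Msgn1, Mesp2, Meox1, Tcf15 and Pax3. They were taken as every probe set whose platform annotation carries exactly one of these symbols, which gave 11 of the 45037 probe sets tested. Foxc1 had 2 probe sets, Pax3 had 3, and the other 6 genes had 1 each. RNA was measured on 6 Affymetrix arrays. The cells were mouse embryonic stem (ES) cells grown into aggregates called embryoid bodies, from which Flk1-positive cells were sorted. All samples came from the ES cell line ER71 A17C, of background strain 129P2/Ola, which carries a doxycycline-inducible Etv2 cassette in both groups. The labels do not say whether it is a single clone. The 3 induced samples received doxycycline at 0.5 microg/ml from day 3 of differentiation for 12 hours, the 3 controls were untreated according to the design text, and all were collected at day 3.5. The treatment field names doxycycline on all 6 samples, so the groups rest on the titles. Doxycycline-treated cells without the cassette were not analysed here, so an effect of the drug and an effect of Etv2 cannot be told apart.

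Paraxial mesoderm flanks the neural tube and is cut into somites, which give rise to vertebrae, ribs, skeletal muscle and dermis. Tbx6 and Msgn1 act in the unsegmented presomitic tissue, Mesp2 sets the segment boundaries, and Tcf15, Meox1 and Pax3 mark the somites that follow. Foxc1 and Foxc2 are forkhead factors of presomitic mesoderm and somites which also act in blood vessels, where forkhead and ETS proteins such as Etv2 bind together at FOX:ETS elements of endothelial enhancers. Etv2 is an ETS factor without which endothelium and blood do not form. Flk1, the product of Kdr, is a VEGF receptor on the early mesoderm from which these and other mesodermal tissues arise.

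The values are log2 RMA levels, so that a step of 1 on the log2 scale is a 2-fold difference. The induced factor itself, Etv2, stood at 9.92, 8.59 and 10.71 in controls 1, 2 and 3 and at 13.27, 13.28 and 13.36 in the induced samples 1, 2 and 3, with no overlap. Induced cells held 11.8-fold more (3.56 ± 0.46, SE, on the log2 scale), at an unadjusted p of 7.58e-05 and a limma adjusted p of 0.9998, so that Etv2 itself did not reach the adjusted threshold. Kdr, on whose protein the cells were sorted, stood at 10.02, 8.40 and 10.97 in the controls and at 9.56, 9.36 and 10.52 in the induced samples. Over 5 measured markers of Flk1-positive mesoderm (Kdr, Pdgfra, Mixl1, Eomes and Mesp1) the mean level was 11.22 to 12.63 in the controls and 11.63 to 12.32 in the induced samples. For 6 pluripotency markers it was 10.37 to 10.87 and 10.59 to 10.71, for 7 endothelial markers 6.30 to 6.40 and 6.36 to 6.59, for 6 blood markers 6.92 to 7.14 and 6.91 to 7.34, for 6 endoderm markers 8.23 to 8.89 and 8.51 to 8.80, and for 6 neural and neural crest markers 7.51 to 7.74 and 7.51 to 7.75. Control 2 was the lowest sample for each of the 5 mesoderm markers. Its mean over the pluripotency markers was the highest, with Pou5f1, Nanog and Zfp42 highest there and Tdgf1 lowest. RMA values have no zero and no detection calls were used here, so a low level does not show that a gene was silent. In sorted populations, fewer cells of a type and less RNA per cell cannot be told apart.

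None of the 8 genes differed between induced and control cells past the threshold. In limma, 0 of the 11 probe sets had an adjusted p under 0.05 and 0 had an unadjusted p under 0.05, where 0.00222% and 1.53% of all probe sets did. The median log2 fold change of the 11 probe sets was -0.014, against 0.0029 over all probe sets. Means were higher in induced cells for 5 probe sets and lower for 6. Groups overlapped for each of the 11, whereas 6.42% of all probe sets had groups that did not overlap. What the genes did show was a split by spread. Foxc1, Foxc2, Tbx6 and Mesp2 ranged from 2.17-fold to 4.02-fold between arrays, and the probe sets of Msgn1, Meox1, Tcf15 and Pax3 ranged from 1.04-fold to 1.41-fold. An SD of at least 0.5 over the 6 arrays was reached by 4 of the 11 probe sets, both of Foxc1 and those of Tbx6 and Mesp2, and by 1.05% of all probe sets. Control 2 was the lowest array for these 4 and for Foxc2, as it was for 16.4% of all probe sets.

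**Figure D1:**
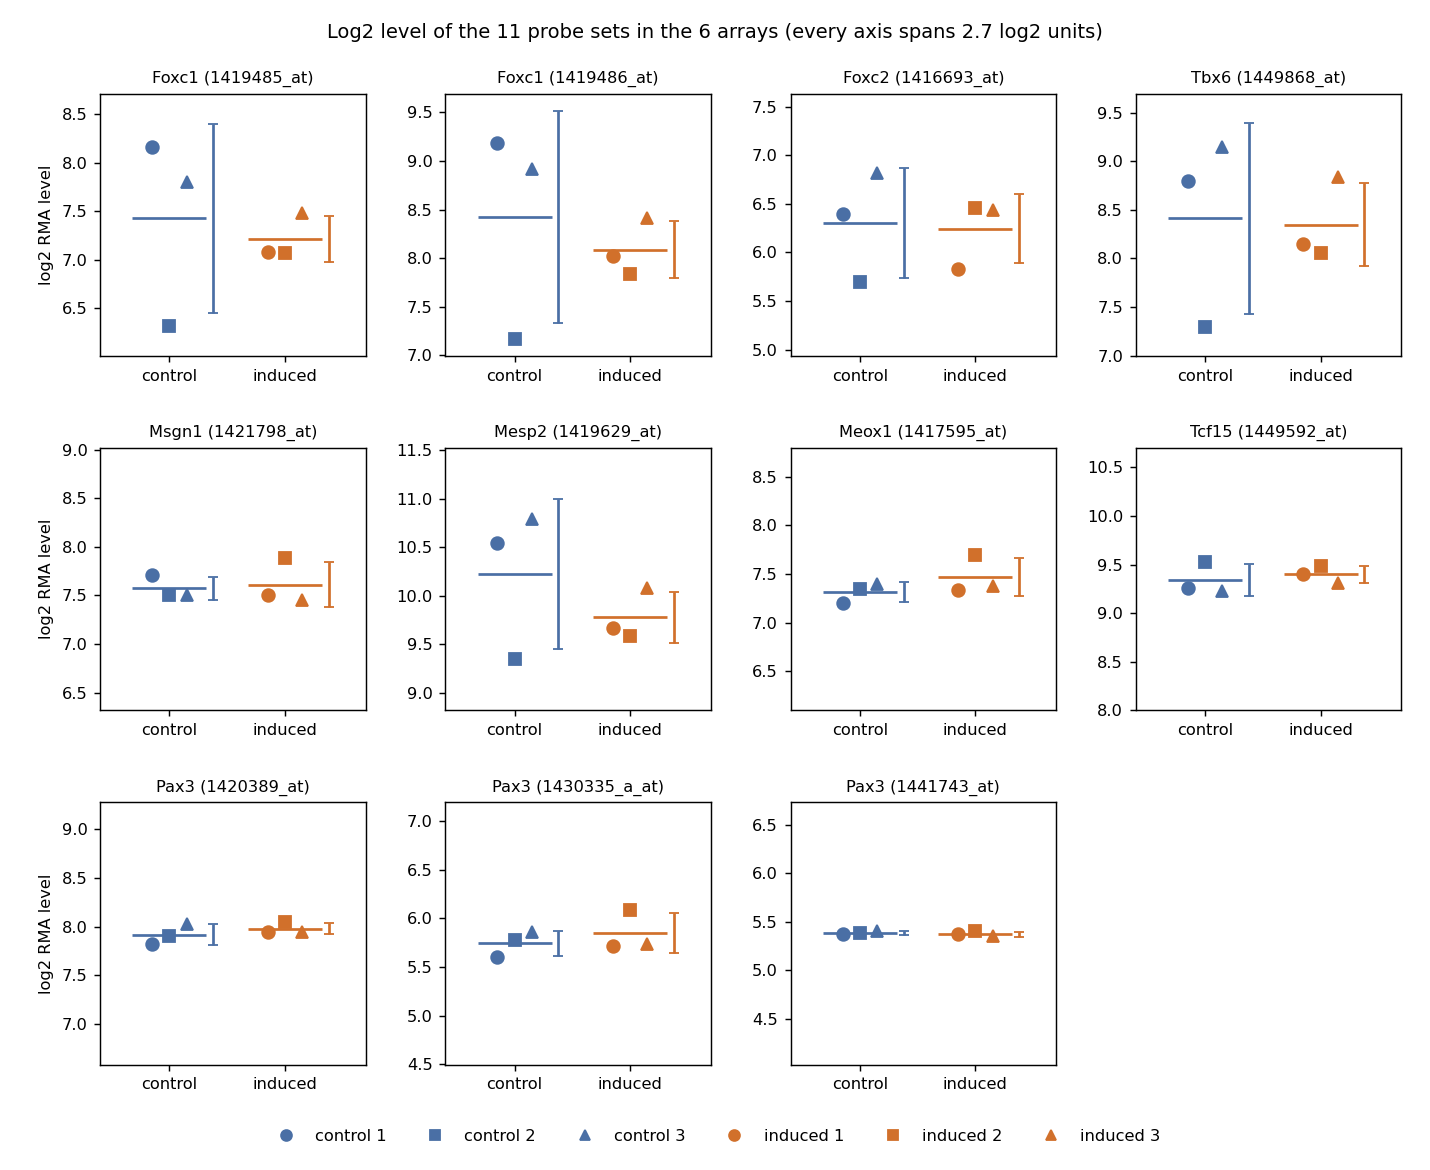
Log2 RMA level of each of the 11 probe sets in the 6 arrays, with controls in blue, induced samples in orange and the marker shape giving the replicate number. Horizontal lines are group means, bars beside them are ± 1 SD (n = 3), and every axis spans 2.7 log2 units. Control 2 (blue square) is the lowest point for both Foxc1 probe sets, Foxc2, Tbx6 and Mesp2, and the points of Msgn1, Meox1, Tcf15 and Pax3 lie close together.

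The members of the wide-ranging set with an entry in the RefSeq promoter table are Foxc1, Mesp2 and Tbx6. Their promoters are shown because these genes varied together over the arrays. Each run is the 250 bases before the annotated gene start, 5′ to 3′ on the gene's strand, in build GRCm38.p6, with GGAA or its reverse complement TTCC, the core bound by ETS factors, in capitals. Foxc1 is read from the plus strand at chr13:31806396-31806645, Mesp2 from the plus strand at chr7:79810477-79810726, and Tbx6 from the plus strand at chr7:126781233-126781482.
Foxc1: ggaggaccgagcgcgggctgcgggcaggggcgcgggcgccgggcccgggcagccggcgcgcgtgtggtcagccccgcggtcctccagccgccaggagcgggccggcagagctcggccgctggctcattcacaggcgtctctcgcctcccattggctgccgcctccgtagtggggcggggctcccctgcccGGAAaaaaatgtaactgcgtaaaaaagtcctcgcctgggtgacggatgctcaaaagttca
Mesp2: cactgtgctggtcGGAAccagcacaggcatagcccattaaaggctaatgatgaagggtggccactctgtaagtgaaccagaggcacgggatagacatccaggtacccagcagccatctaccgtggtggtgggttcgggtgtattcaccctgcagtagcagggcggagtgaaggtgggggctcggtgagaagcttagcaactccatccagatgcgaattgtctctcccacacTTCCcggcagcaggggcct
Tbx6: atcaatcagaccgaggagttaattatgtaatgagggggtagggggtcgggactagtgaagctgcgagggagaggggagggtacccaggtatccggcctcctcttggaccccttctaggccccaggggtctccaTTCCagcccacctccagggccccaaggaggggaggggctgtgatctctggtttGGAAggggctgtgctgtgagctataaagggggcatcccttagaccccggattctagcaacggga

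The ETS core matched at 1 place in the Foxc1 promoter, 2 in Mesp2 and 2 in Tbx6. It is found in 93.4% of the 32851 promoters of this length, so its presence sets none of them apart. The longer GGAAG was found once each in Mesp2 and Tbx6 and not in Foxc1, against 64.1% of all promoters. An E-box, CANNTG, the site type of bHLH factors, was found once in Mesp2 and not in the other two, against 66.2% of all. The forkhead motif GTAAACA, the T-box motif TCACACCT, the TCF/LEF motif CTTTGA and the RBPJ motif GTGGGAA, which overlaps the ETS core, were absent from the 3 windows and present in 3.17%, 1.12%, 13.8% and 5.42% of all promoters. Both strands were searched for every motif. In the Msgn1 promoter, not shown, GGAA matched at 5 places, GGAAG and CTTTGA at 2 each, and CANNTG and GTGGGAA at 1 each. Absence says only that these letters are not in these windows.

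Foxc1 encodes a forkhead factor required, together with Foxc2, for somite formation. Its probe set 1419486_at read 9.18, 7.17 and 8.91 in controls 1, 2 and 3 and 8.02, 7.84 and 8.41 in the induced samples 1, 2 and 3. Controls 1 and 3 lay above all induced samples and control 2 below them, so the groups overlapped. The means were 8.42 ± 1.09 (SD, n = 3) and 8.09 ± 0.29, a log2 fold change of -0.33 ± 0.48 (SE) with a 95% interval of -1.46 to 0.79 and a limma adjusted p of 0.9998. The other probe set, 1419485_at, read 8.16, 6.32 and 7.80 in the controls and 7.08, 7.07 and 7.48 in the induced samples. It placed the 6 arrays in the same order (Spearman rho = 1, exact permutation p = 0.0028, and Pearson r = 0.99, exact permutation p = 0.0014). Its log2 fold change was -0.21 ± 0.43, with an interval of -1.21 to 0.78, and it lay below the median level of the table. Between controls 1 and 2 the spread was 4.02-fold on the first and 3.56-fold on the second of these probe sets.

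Foxc2, the paralogue of Foxc1 and a regulator of lymphatic and arterial vessels as well as somites, stood at 6.40, 5.70 and 6.82 in the controls. In the induced samples it stood at 5.83, 6.46 and 6.44. Control 2 was again the lowest array, but induced 1 lay only slightly above it, which was not the case for Foxc1. The log2 fold change was -0.062 ± 0.29 (SE), with a 95% interval of -0.74 to 0.61. Foxc2 also lay below that median level, a range in which array background can compress differences, though it ranged 2.17-fold over the arrays.

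Among the presomitic genes, Tbx6 ranged 3.61-fold over the arrays. Tbx6 is a T-box factor without which mouse paraxial mesoderm turns to neural tissue. It read 8.80, 7.30 and 9.15 in controls 1, 2 and 3 and 8.15, 8.06 and 8.84 in the induced samples 1, 2 and 3. Induced samples fell inside the range of the controls, whose SD was 0.98 against 0.43. The log2 fold change was -0.065 ± 0.46 (SE), with a 95% interval of -1.13 to 1.00.

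Msgn1, a bHLH factor that works with Tbx6 in maturing presomitic mesoderm, placed the arrays in another order. Its levels were 7.71, 7.50 and 7.51 in the controls and 7.50, 7.88 and 7.45 in the induced samples. Induced 2 was the highest array and the other 5 lay between 7.45 and 7.71. The log2 fold change was 0.039 ± 0.13 (SE), with a 95% interval of -0.26 to 0.34, and it was -0.096 without induced 2.

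Mesp2, a bHLH factor that sets the segment boundary and is also made with its neighbour Mesp1 in newly formed mesoderm, had the largest log2 fold change of the 8 genes, though it did not pass the threshold. It stood at 10.54, 9.35 and 10.79 in controls 1, 2 and 3 and at 9.67, 9.59 and 10.08 in the induced samples 1, 2 and 3. Controls 1 and 3 lay above all induced samples, and control 2 below them. Means were 10.23 ± 0.77 (SD, n = 3) and 9.78 ± 0.26. The log2 fold change was -0.45 ± 0.35 (SE), with a 95% interval of -1.26 to 0.37, an unadjusted p of 0.241 and a limma adjusted p of 0.9998.

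The somite genes ranged little. Meox1, a homeobox factor of the somites, read 7.20, 7.34 and 7.39 in the controls and 7.33, 7.70 and 7.38 in the induced samples, a log2 fold change of 0.16 ± 0.11 (SE) with a 95% interval of -0.11 to 0.42. Induced 2 stood above the other arrays, and without it the difference was 0.043. Pax3, a paired-box factor of the dermomyotome that is also made in dorsal neural tube and neural crest, read 7.82, 7.90 and 8.03 in the controls and 7.95, 8.05 and 7.94 in the induced samples on probe set 1420389_at. Its log2 fold change there was 0.064 ± 0.083, with an interval of -0.13 to 0.26. Probe set 1430335_a_at of Pax3 read 5.60, 5.78 and 5.85 in the controls and 5.72, 6.08 and 5.74 in the induced samples, and 1441743_at stayed between 5.35 and 5.41 on all 6 arrays. Log2 fold changes on these probe sets were 0.10 ± 0.12 and -0.014 ± 0.068. Induced 2 was the highest array for Msgn1, Meox1 and 2 of the 3 Pax3 probe sets, as it was for 31.8% of all probe sets. That array had a median of 7.40 over all probe sets, against 7.34 to 7.35 in the other 5.

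Tcf15, also called paraxis, is the bHLH factor by which somites become epithelial, and it is also made by part of the mouse ES cells in culture. It read 9.25, 9.53 and 9.23 in controls 1, 2 and 3 and 9.40, 9.49 and 9.31 in the induced samples 1, 2 and 3. Here control 2 was the highest array, opposite to Foxc1, Tbx6 and Mesp2, although the whole range was only 1.23-fold. The log2 fold change was 0.063 ± 0.10 (SE), with a 95% interval of -0.18 to 0.30. The pluripotency marker mean was likewise highest in control 2, at 10.87, and lowest in controls 1 and 3, at 10.50 and 10.37, with induced samples 1, 2 and 3 at 10.71, 10.69 and 10.59. Its part in the Tcf15 levels was not tested.

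Control 2 decided the size of the difference for Foxc1, Tbx6 and Mesp2. Without it the log2 fold change was -0.96 ± 0.18 (SE) for Foxc1 (1419486_at), -0.76 ± 0.17 for Foxc1 (1419485_at), -0.62 ± 0.24 for Tbx6 and -0.89 ± 0.16 for Mesp2. Unadjusted p-values were 0.00097, 0.0024, 0.035 and 0.00098, and limma's adjusted p was 0.993 for each. In that setting 4 of 11 probe sets had an unadjusted p under 0.05, all lower in induced cells, where 1.93% of all probe sets were lower at that level, and 0 probe sets, or 0% of the whole table, passed the adjusted threshold. Both remaining controls then lay above all 3 induced samples for both Foxc1 probe sets and Mesp2, which was so for 11% of all probe sets. This setting keeps induced 2 without the control of its number. Control 2 was the lowest array for both Foxc1 probe sets, Tbx6 and Mesp2, so leaving it out had to lower their differences. Their count and p-values here are therefore no separate support for a change, and both Foxc1 probe sets order the arrays alike. Array quality weights were lowest for induced 2 (0.32) and control 3 (0.64), with control 2 at 0.85. With both samples of number 2 left out, an alternative added after seeing the data, 3 of 11 probe sets had an unadjusted p under 0.05, those of Foxc1 and Mesp2, all lower, where 1.63% of all probe sets were lower at that level. Tbx6 then had a log2 fold change of -0.48 ± 0.25 and an unadjusted p of 0.109. Other single arrays moved the values too. Without control 1 the log2 fold change was 0.045 and 0.15 on the Foxc1 probe sets and 0.13 for Tbx6, and without control 3 it was -0.16 for Mesp2 and 0.30 for Tbx6. The lowest unadjusted p among the 11 probe sets was 0.122 or higher when any single array other than control 2 was left out.

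**Figure D2:**
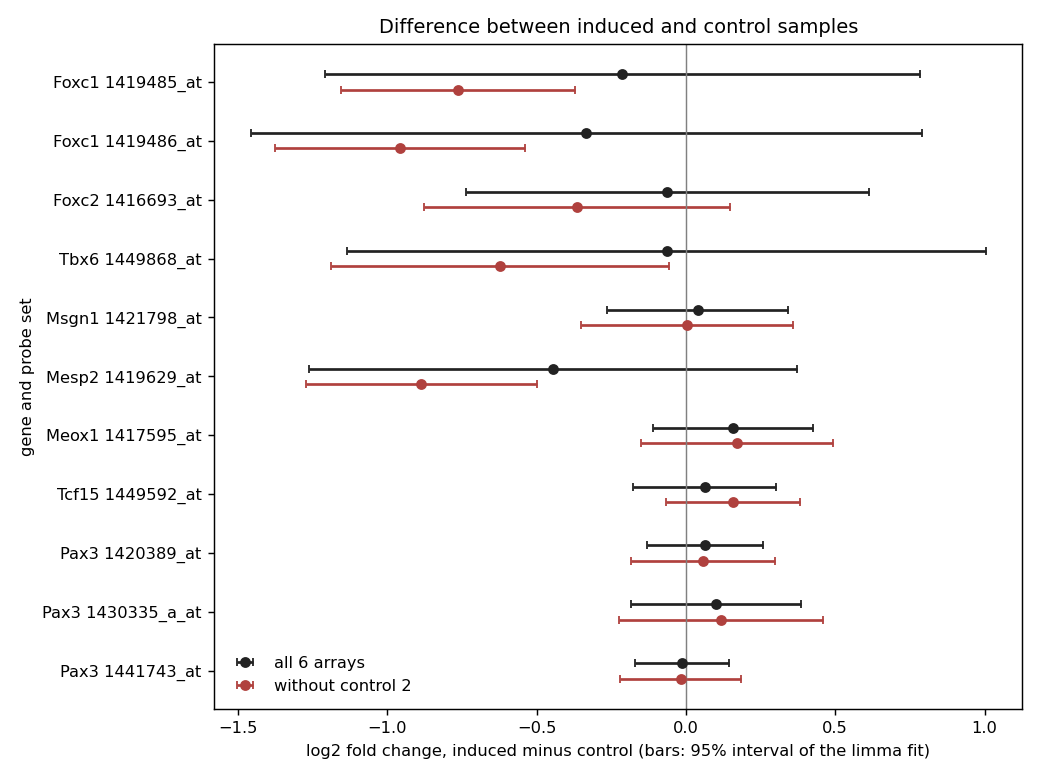
Log2 fold change of each probe set, induced minus control, with the 95% interval of the limma fit, for all 6 arrays (black) and without control 2 (red). With all arrays every interval includes 0. Without control 2 the intervals of both Foxc1 probe sets, Tbx6 and Mesp2 lie below 0 before adjustment for multiple tests. Control 2 was the lowest array for these probe sets, so leaving it out had to lower their differences.

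By replicate number, the differences did not run one way. For this comparison the numbers of the titles were treated as pairs, whereas the main fit above was unpaired. For Foxc1 the induced sample minus the control was -1.16, 0.66 and -0.50 in numbers 1, 2 and 3. Tbx6 gave -0.65, 0.76 and -0.31, and Mesp2 gave -0.87, 0.24 and -0.71. Number 2 thus went against numbers 1 and 3 in these genes. Foxc2 gave -0.57, 0.76 and -0.38 and Msgn1 -0.21, 0.38 and -0.053, in the same signs. Of the 11 probe sets 0 had the same sign in all 3 numbers, while 13.3% of all probe sets were lower in all 3 and 9.53% higher in all 3. With the replicate number as a block, the lowest unadjusted p was 0.0765, for Mesp2, and 0 of the 11 passed the adjusted threshold, as did 0 probe sets of the table.

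**Figure D3:**
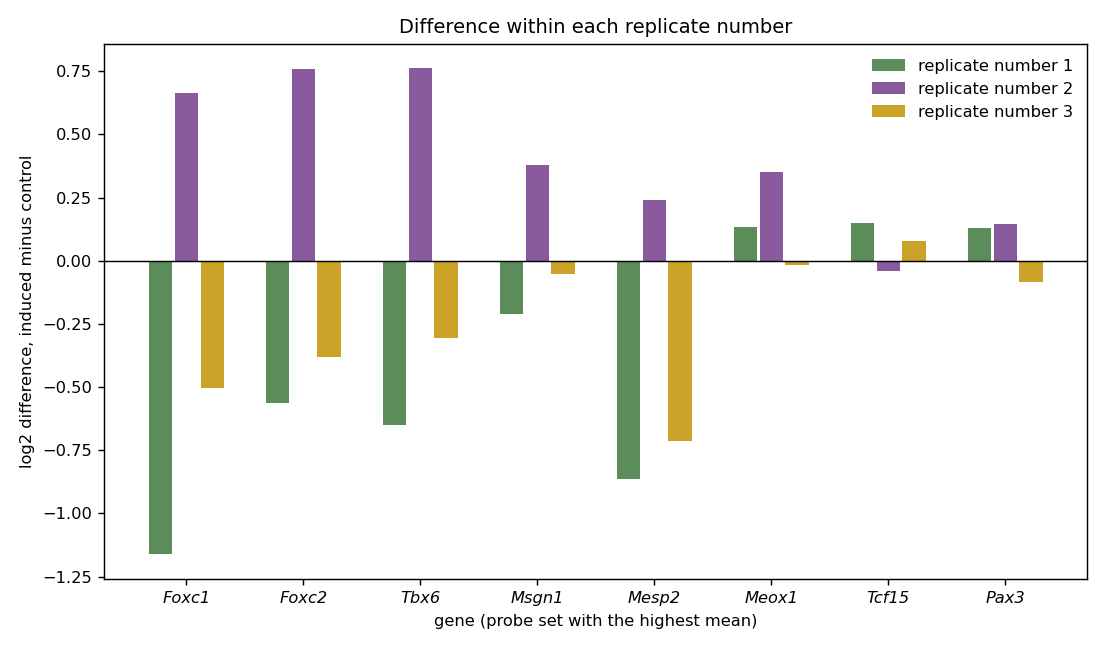
Log2 difference of the induced sample from the control of the same replicate number for each gene, on its probe set with the highest mean. Number 2 (purple) is positive for 7 genes, and numbers 1 and 3 are negative for Foxc1, Foxc2, Tbx6, Msgn1 and Mesp2.

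Tbx6 followed Kdr over the 6 arrays, Mesp2 did so by rank, and Tcf15 ran against Kdr by rank. A relation of mesoderm genes to Kdr in these arrays was known when these genes were chosen, so the values describe its members and are not independent support for it. All 8 genes were set against Kdr, with exact permutation p-values over 720 pairings, two-sided and adjusted over the 8. Of the 8, Tbx6 had the closest relation, with Pearson r = 0.98 (exact permutation p = 0.0014, the smallest possible, adjusted 0.0111) and Spearman rho = 1 (exact permutation p = 0.0028, adjusted 0.0222). The 6 arrays thus stood in the same order for Tbx6 as for Kdr, and a step of 1 in Kdr went with 0.73 in Tbx6 on the log2 scale. Without controls 2 and 3, the arrays farthest from the median of Kdr, r was 0.93. Close relations to Kdr were not particular to Tbx6 or to this set. Among the highest genes of the lists described below, r was 0.97 for Cyp26a1, 0.96 for Lhx1 and Msx1, and 0.94 for Mesp1, Gata6 and Foxh1. It was 0.86 for Twist1, 0.53 for Foxj3, 0.16 for Notch4, -0.011 for Six4 and -0.93 for Sox2. Gata4, a gene of the lateral plate list chosen after its values were seen, had r = 0.99.

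Mesp2 and Tcf15 passed for the rank order alone. Mesp2 had r = 0.88 (exact permutation p = 0.0194, adjusted 0.0519) and rho = 0.94 (exact permutation p = 0.0167, adjusted 0.0444). Tcf15 ran the other way, with r = -0.91 (exact permutation p = 0.0125, adjusted 0.05) and rho = -0.94 (exact permutation p = 0.0167, adjusted 0.0444). The change in Tcf15 was small, at -0.12 for a step of 1 in Kdr. Without controls 2 and 3, r was 0.66 for Mesp2 and -0.79 for Tcf15.

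Foxc1 and Foxc2 did not pass after adjustment. For Foxc1 r was 0.85 (exact permutation p = 0.0347, adjusted 0.0578) and rho 0.83 (exact permutation p = 0.0583, adjusted 0.117), and for Foxc2 r was 0.83 (exact permutation p = 0.0361, adjusted 0.0578) and rho 0.66 (exact permutation p = 0.175, adjusted 0.28). These values rested on controls 2 and 3, without which r was 0.57 and 0.36. Control 1 was the highest array for Foxc1 and only the third highest for Kdr. Msgn1, Meox1 and Pax3 had r of -0.20, -0.13 and 0.21, with exact permutation p-values of 0.692, 0.818 and 0.689.

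Each replicate number holds 2 arrays, too few for a correlation, so the direction within each number was compared. Kdr differed by -0.46, 0.96 and -0.45 in numbers 1, 2 and 3. Foxc1, Foxc2, Tbx6, Msgn1 and Mesp2, 5 of the 8 genes, had the sign of Kdr in all 3 numbers, and Tcf15 had the opposite sign in all 3. The share of all probe sets with these signs was not computed, so the counts only describe and are not a result about these genes. For Msgn1 the difference in number 3 was only -0.053. With each group centred on its own mean, r with Kdr was 0.88 for Foxc1, 0.84 for Foxc2, 0.98 for Tbx6, 0.97 for Mesp2, -0.95 for Tcf15, -0.20 for Msgn1, -0.16 for Meox1 and 0.23 for Pax3. With each replicate number centred on its own mean, which leaves only 3 differences, r was 0.85 for Foxc1, 0.98 for Foxc2, 0.96 for Tbx6, 0.72 for Mesp2, -0.71 for Tcf15, 0.96 for Msgn1, 0.65 for Meox1 and 0.48 for Pax3. For Msgn1 these descriptions differed, and no relation to Kdr is read from its 0.96. That value rests on 3 differences, and the only positive one was in number 2, where induced 2 was its highest array. Kdr is what the cells were sorted on. Its part in these differences was not tested beyond this and the fit with Kdr as a covariate given below.

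**Figure D4:**
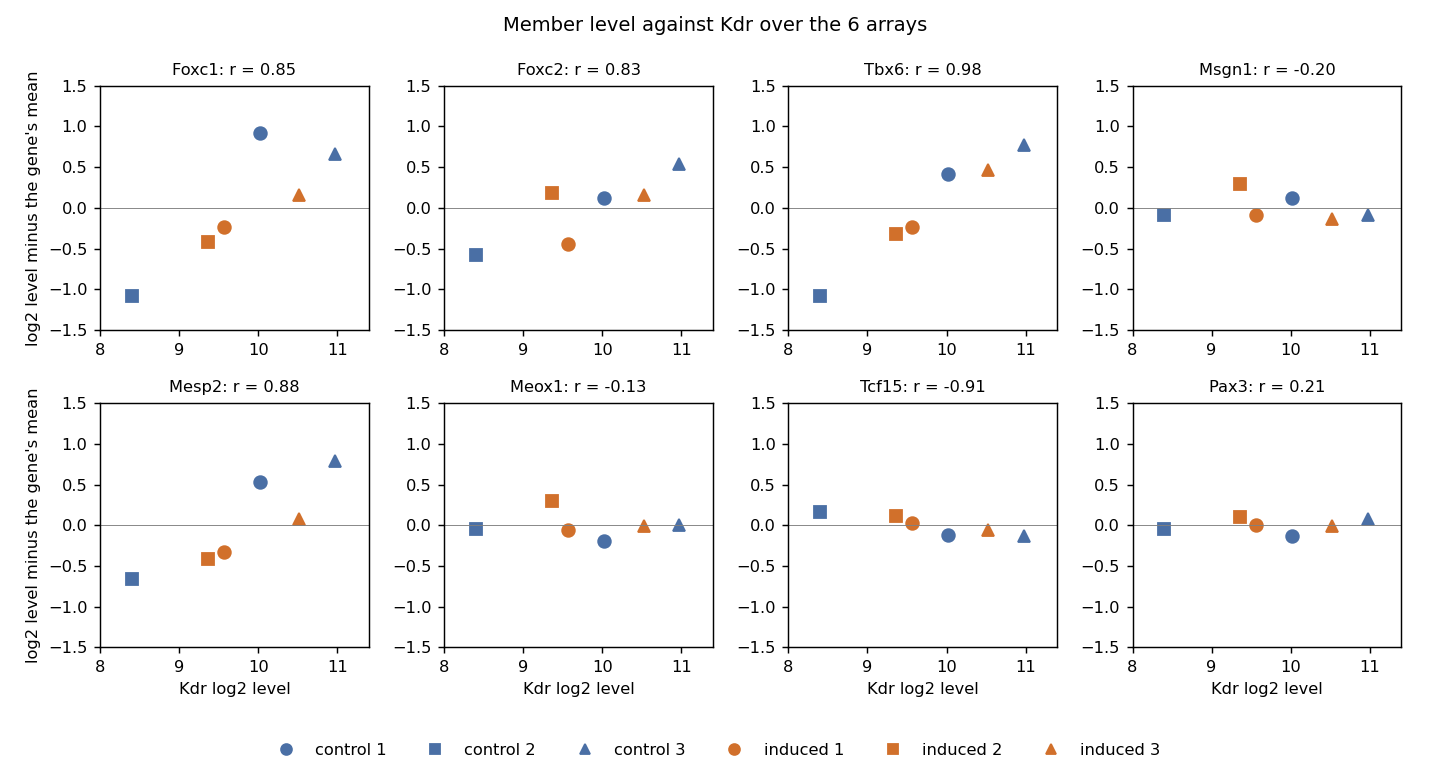
Log2 level of each gene, minus its own mean over the 6 arrays, against the log2 level of Kdr, with Pearson r in each panel title. Colours give the group and shapes the replicate number. Tbx6 rises along Kdr through all 6 arrays, Tcf15 declines slightly, and Msgn1, Meox1 and Pax3 have r between -0.20 and 0.21 over the 6 arrays.

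With the Kdr level as a covariate, a fit chosen after the data were seen, the log2 fold change was -0.45 ± 0.11 (SE) for Mesp2 (unadjusted p = 0.0034, limma adjusted p = 0.9986), -0.34 ± 0.24 for Foxc1 and -0.076 ± 0.11 for Tbx6. An unadjusted p under 0.05 was found for 1 of the 11 probe sets and for 2.86% of all probe sets in that fit. With Pdgfra, a receptor gene of paraxial and other mesoderm, as the covariate instead, the Mesp2 difference was -0.24 ± 0.12 and that of Foxc1 -0.048 ± 0.17. Pdgfra itself stood at 11.71, 9.89 and 11.78 in the controls and at 10.89, 10.18 and 11.34 in the induced samples.

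Between the 8 genes 28 pairs were compared. Pearson's r passed after adjustment in 4 pairs, and Spearman's rho in 0. The 4 pairs were Foxc1 with Mesp2 (r = 0.95, exact permutation p = 0.0056), Foxc1 with Tcf15 (r = -0.96, exact permutation p = 0.0042), Tbx6 with Tcf15 (r = -0.95, exact permutation p = 0.0028) and Mesp2 with Tcf15 (r = -0.97, exact permutation p = 0.0056), each with an adjusted p of 0.0389. Their rho values were 0.94, -0.94, -0.94 and -1, with adjusted p-values of 0.0933, 0.0933, 0.0933 and 0.0778. Foxc1 and Tbx6 had r = 0.93 (exact permutation p = 0.0139, adjusted 0.0648), and Foxc1 and Foxc2 r = 0.74 (exact permutation p = 0.107, adjusted 0.299). For Tbx6 and Mesp2 r was 0.92 (exact permutation p = 0.0125, adjusted 0.0648). Tbx6 and Msgn1, the presomitic factors, had r = -0.095 (exact permutation p = 0.821). Meox1 and Pax3 had r = 0.84 (exact permutation p = 0.0389, adjusted 0.136), and induced 2 was the highest array for both.

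**Figure D5:**
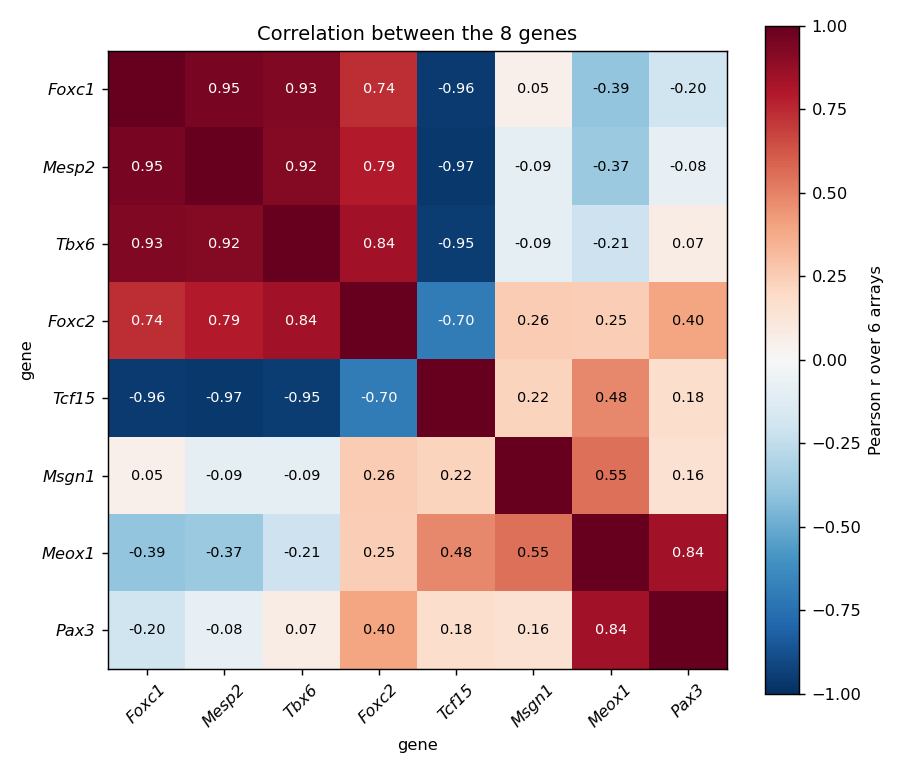
Pearson r over the 6 arrays for each pair of the 8 genes, on the probe set with the highest mean, from blue at -1 to red at 1. Foxc1, Mesp2, Tbx6 and Foxc2 form a block of positive values between 0.74 and 0.95, and Tcf15 has values between -0.97 and -0.70 with them.

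Among the 723 genes with an SD of at least 0.3 over the arrays, those most like each member are given as a description, with r over the same 6 arrays. For Foxc1 they were Mesp1, the neighbour of Mesp2 and a factor of nascent mesoderm (r = 0.98), Nin, a centrosome protein (0.97), and Evx1, a homeobox factor of the primitive streak (0.97). Tbx6 was followed by Aplnr, the apelin receptor gene, Asb4 and Lhx1os (each 0.997). For Mesp2 they were Irx5, an Iroquois homeobox factor (0.997), Snai1, a repressor of E-cadherin that acts as cells leave the streak (0.99), and Tenm2 (0.99). Levels of Irx5 were 8.41 in the controls and 7.81 in the induced samples, and those of Snai1 9.65 and 9.15, with the lower mean in the induced samples, as for Mesp2.

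Tcf15 ran with Atp6v0e2, a proton pump subunit gene (r = 0.99), Pipox (0.99) and Crb3, a gene of epithelial polarity (0.98). For Foxc2 the closest were Amhr2 (0.96), Amer3 (0.91) and Mgat5b (0.91). Msgn1 had Hbb-bh1, an embryonic globin gene (0.90), Slfn3 (0.86) and 1700015G11Rik (0.81). Meox1 had Gsg1l (0.97), Saa1 (0.96) and Sost (0.93), and Pax3 had Gsg1l (0.83), Saa1 (0.70) and Msi1 (0.68). The last sets come from members whose own range is small, so r there weighs small differences.

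The other genes of the pathway did not pass the threshold in limma either. Of 18 measured segmentation and presomitic genes 0 passed, 0 had an unadjusted p under 0.05, and 14 had a lower mean in the induced samples, with a median log2 fold change of -0.066 against 0.0026 over all genes. The members with the highest level were Mesp1, at 12.92, 11.30 and 13.05 in the controls and 12.04, 11.85 and 12.61 in the induced samples, and Cyp26a1, a retinoic acid-degrading enzyme, at 12.76, 11.31 and 13.03 and at 12.18, 11.85 and 12.81. Both were lowest in control 2, as were Foxc1, Tbx6 and Mesp2.

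Later somite and dermomyotome genes were split 10 higher and 9 lower of 19 measured, with 0 passing, 0 at an unadjusted p under 0.05 and a median of 0.0020. The highest were Six4, at 9.62, 9.87 and 9.75 in the controls and 9.71, 9.43 and 9.81 in the induced samples, and Twist1, a bHLH factor of mesenchyme, at 9.65, 8.73 and 9.77 and at 9.22, 9.14 and 9.23. The list mean lay between 6.64 and 6.73 in the controls and between 6.66 and 6.72 in the induced samples, a narrow range beside the 8.48 to 9.29 and 8.76 to 9.08 of the presomitic list. Most of the measured somite genes, Uncx and Tbx22 among them, lay below the median level of the table, where array background can compress differences. Most of the presomitic genes lay above it, so the ranges of these lists are not directly comparable. The narrow mean does not hold for each gene, as Twist1 ranged 2.06-fold over the arrays and Six4 1.36-fold.

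Genes with a known FOX:ETS element, where Foxc factors and Etv2 can bind together, were higher in 5 of 6, with 0 passing, 0 at an unadjusted p under 0.05 and a median of 0.14. This lean was not particular to the list. Means were also higher in 6 of 7 endothelial, 5 of 6 blood, 5 of 6 endoderm and 4 of 6 pluripotency markers. They were higher in 3 of 6 neural and 2 of 5 Flk1-positive mesoderm markers. Kdr was higher by only 0.016, and Cdh5, Tal1, Tek and Mef2c lay below the median level of the table. The members with the highest level were Kdr, given above, and Notch4, at 7.50, 7.43 and 7.39 in the controls and 7.59, 7.52 and 7.71 in the induced samples, a log2 fold change of 0.17 ± 0.081 (SE) with a 95% interval of -0.019 to 0.36. All 3 induced samples lay above all 3 controls for Notch4, and the groups did not overlap for 6.42% of all probe sets. Groups also did not overlap for 1 of 18 measured segmentation genes and 2 of 19 somite genes, counts too small to set these lists apart from that share. These genes were named after their values were seen. Their unadjusted limma p-values were 0.052 for Cdx2, 0.104 for Uncx and 0.075 for Tbx22, and Uncx and Tbx22 lay below the median level of the table. Cdx2, a homeobox factor of the posterior embryo, was higher in all induced samples, at 8.75, 8.82 and 8.89 against 8.72, 8.58 and 8.62 in the controls. Uncx and Tbx22 were lower in all induced samples, Uncx at 5.53, 5.42 and 5.49 against 5.88, 5.54 and 5.59 and Tbx22 at 4.56, 4.36 and 4.49 against 4.58, 4.69 and 4.64.

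The remaining lists likewise held 0 members past the threshold and 0 at an unadjusted p under 0.05. Other forkhead genes were split 4 and 4, with Foxj3 at log2 fold change -0.087 ± 0.10 (SE) and Foxh1, a Nodal pathway factor, at -0.16 ± 0.21. Lateral plate and intermediate mesoderm genes were split 6 and 6, with Lhx1 at -0.061 ± 0.36 and Gata6 at 0.023 ± 0.42. Genes of neural tissue and neural crest, where Pax3 is also made, were 5 higher and 7 lower, with Msx1 at -0.042 ± 0.38 and Sox2 at -0.088 ± 0.31.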

How the data were processed

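Values are log2 levels per probe set in the table the authors deposited, computed with RMA, per the submitters' processing notes; its version, software and probe annotation are not stated in those notes. Of 45101 probe sets, 64 Affymetrix control probe sets were left out, and symbols came from the GEO platform annotation. Dim probe sets were kept. Groups and replicate numbers came from the titles. Separate cultures are not stated, so a p-value here reflects the spread of these samples and may be technical in part. With 3 arrays a group, precision is limited.

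For the comparison, limma 3.58.1 (R 4.3.3; lmFit, eBayes, two-sided) was fitted to 45037 probe sets, adjusted over all of them by Benjamini-Hochberg, with a threshold of 0.05. Fold changes are induced minus control, with standard errors of the fit. For genes with several probe sets, correlations, lists and the search for like genes used the one with the highest mean. The fit and the correlation were tested on simulated data. Deviations from group means correlated at r = 0.25, 0.17 and 0.23 for samples numbered 1, 2 and 3, all above 0.1, so the numbers were treated as pairs. Control 1 with induced 3 gave 0.21 and control 2 with induced 1 gave 0.18, so the data do not single out the numbered pairs, and the pairing rests mainly on the titles. Named are the 8 members, Etv2 and Kdr, the 2 highest members of each list with none past the threshold, and the 3 genes most like each member. Pdgfra, Gata4, Cdh5, Tal1, Tek, Mef2c, Cdx2, Uncx and Tbx22 were chosen after their values were seen. The members and lists were chosen with earlier results of these data known. Alternatives were a replicate block, other scalings, array weights, trend and robust variance, a filter, 1 probe set per gene, and leaving out each array. Promoters came from RefSeq (GRCm38.p6), with entries for 4 of the 8 genes.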

Additional observations from a re-analysis of the deposited data

How the results depend on the processing

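In each alternative tried 0 member probe sets passed, with limma's adjusted p at 0.965 or above. All 11 were fitted, except that the filter on level kept 7 and 1 probe set per gene kept 8. But Etv2 at 11.8-fold also had an adjusted p of 0.9998, so this count of 0 says little about stability. Over all probe sets there was 1 change, of Hprt, and the count became 0 with the replicate block, with each array centred on its median and without both samples of number 2, 0 when any single array was left out (0 to 0), and 2 with Kdr or with Pdgfra as a covariate, both settings and the removal of number 2 being chosen after the data were seen. The block changed no other call. Leaving out single arrays gave log2 fold changes of -0.76 to 0.15 for Foxc1 (1419485_at), -0.96 to 0.045 for Foxc1 (1419486_at), -0.37 to 0.19 for Foxc2, -0.62 to 0.30 for Tbx6, -0.096 to 0.12 for Msgn1, -0.89 to -0.16 for Mesp2, 0.043 to 0.22 for Meox1, 0.0099 to 0.16 for Tcf15, and 0.014 to 0.12, -0.017 to 0.17 and -0.028 to -0.0019 for the Pax3 probe sets. With Pdgfra as a covariate the value was 0.032 for Foxc1 (1419485_at), 0.055 for Foxc2 and 0.21 for Tbx6. Array quality weights gave -0.10 for Msgn1, and leaving out both samples of number 2 gave -0.13 for Msgn1 and -0.0011 for Pax3 (1430335_a_at). The cause of these changes was not tested. The relation to Kdr passed in 1 gene by Pearson's r and in 2 with each array centred on its median, where Tcf15 was added at r = -0.94. For Pax3, r with Kdr was -0.50 without the 2 arrays farthest from the median of Kdr and -0.13 on probe set 1430335_a_at. Kdr has 1 probe set, so no other could be tried. Above the median level lay 7 of the 11 probe sets. Dim levels can be compressed by background, which may limit what Foxc1 (1419485_at), Foxc2 and 2 Pax3 probe sets show. Msgn1 and Meox1 lay close to the median level, so the same limit may hold for them. Their control and induced means were 7.57 and 7.61 for Msgn1 and 7.31 and 7.47 for Meox1. Foxc1 (1419485_at) still ranged 3.56-fold over the arrays and Foxc2 2.17-fold.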
